A study of Homo sapiens with 6 samples.

Results

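The transcription coactivators YAP1 and WWTR1 (TAZ), their DNA-binding partners TEAD1 and TEAD4, and 6 genes they are known to activate were followed after depletion of the splicing regulator RBM10 in PC9 cells. The 10 genes were chosen by name: YAP1, WWTR1, TEAD1, TEAD4, CCN1, CCN2, ANKRD1, AMOTL2, LATS2 and AJUBA. They are 10 of the 16306 genes in the deposited table, all 10 are listed there, and all 10 passed the filter on low counts that left 12620 genes to test. PC9 is a human lung adenocarcinoma line with an activating EGFR deletion. RNA was sequenced from 3 samples carrying a control shRNA (sh-NC, replicates 1 to 3) and 3 carrying an shRNA against RBM10 (shRBM10), with no other treatment or time point in the labels, and the study examined how loss of RBM10 affects brain metastasis in EGFR-mutated lung adenocarcinoma. The column names tie only 1 shRBM10 library to a sample and its replicate number, so these libraries are called A (replicate 1), B and C. The column names of B and C match no sample title and show only the group. The labels do not say which RBM10 shRNA each of them carried. Nothing in the labels says that the samples of a group came from separate cultures, so the p-values measure the spread between these samples, which may be technical.

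YAP1 and WWTR1 carry no DNA-binding domain of their own and act in the nucleus through the TEAD factors. The Hippo kinases LATS1 and LATS2 phosphorylate both coactivators, which keeps them in the cytoplasm and marks them for degradation, so much of the pathway's control lies outside the RNA level. CCN1, CCN2 and ANKRD1 are commonly read as reporters of YAP and TEAD activity, while LATS2, AMOTL2 and AJUBA are both targets of the pathway and parts of its control.

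Total estimated counts lay between 18181902 and 18864241 in sh-NC and between 16606401 and 18526158 in shRBM10, and single members held between 50 and 9423 counts in a library. Levels are given as normalized counts, that is counts scaled by edgeR's TMM factors to 1 common library size. RBM10 itself had 1431, 1183 and 1469 normalized counts in the controls and 537, 515 and 672 in the shRBM10 libraries, which is 2.37-fold lower with no overlap (log2 fold change −1.24 ± 0.23 SE, adjusted p = 0.10 in edgeR's quasi-likelihood test and 0.00154 in DESeq2). An opposite-strand gene, NDUFB11, shares 16.4% of the RBM10 exon bases, and whether the authors' counting used strand is not given in the sources used here. Other features of the libraries touch the values below. The TMM factor was 0.738 in sh-NC replicate 2 and 1.03 to 1.08 in the other libraries. This raised the normalized counts of sh-NC replicate 2 relative to its raw counts. Whether groups were separate or overlapped is stated on the normalized scale and depends on these factors. The log2 levels of sh-NC replicate 2 correlated at 0.942 and 0.943 with those of sh-NC replicates 1 and 3, which correlated at 0.994 with each other. Those of shRBM10 C correlated at 0.983 with both sh-NC replicates 1 and 3, and at 0.948 and 0.970 with shRBM10 A and B. Library C was thus closer to these controls than to the rest of its own group. With each gene's log2 level taken relative to its mean over the libraries, genes of low GC content stood higher in shRBM10 A and B (Spearman across genes −0.74 and −0.67) and genes of high GC content in the other 4 libraries (0.40 to 0.51). Because that mean is shared, a trend in A and B brings an opposite one in the other libraries. Against sh-NC replicates 1 and 3, the median log2 difference of C lay between −0.06 and 0.04 in every bin of GC content. Of the epithelial markers KRT8, KRT18, KRT19, EPCAM and CDH1 each held at least 1224 counts in a library and NKX2-1, a lung lineage marker, had 0 to 2 counts. The summed epithelial list held 489848 to 613543 counts in sh-NC and 339806 to 539058 in shRBM10. Retina markers, looked at because the protocol text in the labels speaks of retinas, summed to 95 to 116 and 66 to 81 counts over the 3 of 5 listed genes in the table, nearly all of them from NRL, with CRX and PDE6B at 0 to 3.

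Of the coactivators, YAP1 measured higher in 2 of the shRBM10 libraries and WWTR1 did not separate. Gene positions are those of GENCODE v29 on GRCh38. YAP1 (chr11:102110461-102233423) had 1918, 956 and 1849.9 normalized counts in sh-NC replicates 1, 2 and 3 and 3387, 2606 and 1863 in shRBM10 A, B and C. Libraries A and B lay above every sh-NC library, while C lay between the sh-NC values, so the groups overlapped. The difference was 1.66-fold higher in shRBM10 (log2 0.73 ± 0.32 SE, 95% interval 0.0092 to 1.46), with an unadjusted p = 0.0477 and an adjusted p = 0.202. Without sh-NC replicate 2 the log2 difference was 0.39, and it was 0.24 once each library's trend of level on GC content was removed. With both done it was 0.0052. WWTR1 (chr3:149517235-149736714) had 1089, 796 and 1248 in sh-NC against 1225, 1137 and 954 in shRBM10. All 3 shRBM10 values lay inside the sh-NC range (log2 0.08 ± 0.24 SE, 95% interval −0.47 to 0.63, adjusted p = 0.846). The direction of WWTR1 was not stable, since it was −0.16 without sh-NC replicate 2 and −0.53 (adjusted p = 0.246) with the GC trend removed. Both genes share exon bases with an antisense gene, 9.97% in YAP1 and 9.45% in WWTR1 (with WWTR1-AS1), so part of their counts may belong to the partner.

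**Figure D1:**
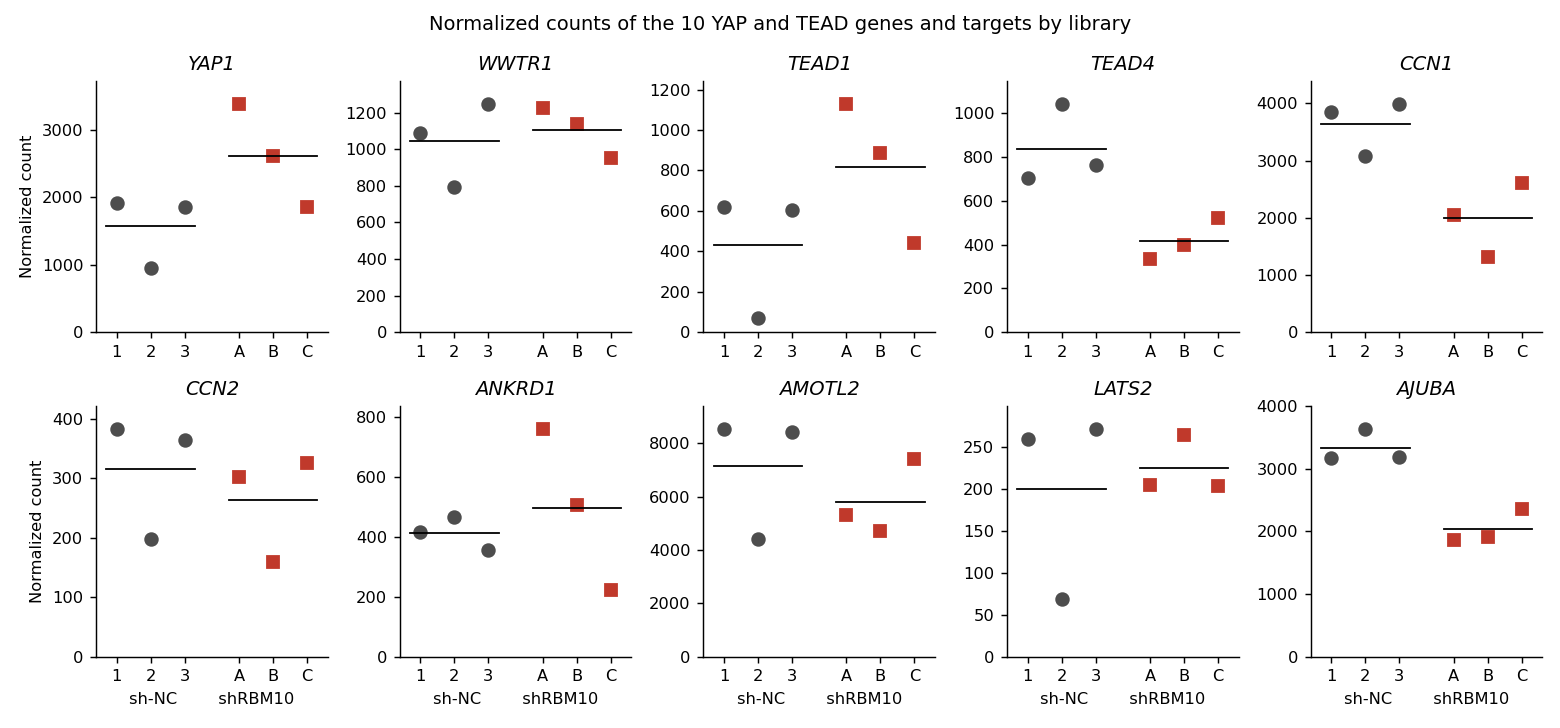
Normalized counts (vertical axis, starting at 0) of the 10 genes in each library. Circles are sh-NC replicates 1 to 3, squares are shRBM10 libraries A to C, and lines are group means; the groups are separate for TEAD4, CCN1 and AJUBA, and sh-NC replicate 2 lies apart from replicates 1 and 3 for TEAD1 (69.8 against 619 and 606).

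Of the TEAD factors, TEAD4 measured lower in every shRBM10 library and TEAD1 had no stable direction. TEAD4 (chr12:2959330-3040673) had 703, 1042 and 762 normalized counts in sh-NC against 333, 397 and 519.6 in shRBM10. Every shRBM10 library lay below every sh-NC library, and the highest shRBM10 value was C. TEAD4 was 2.01-fold lower (log2 −1.0 ± 0.27 SE, 95% interval −1.61 to −0.39), with an unadjusted p = 0.00439 and an adjusted p = 0.152, and a two-sided exact permutation test gave p = 0.1, the smallest that 3 against 3 libraries can give. DESeq2 put its adjusted p at 0.034 with a log2 change of −1.02, so TEAD4 was the 1 member that any tool called over all 6 libraries. With the GC trend removed it was −0.71, and TEAD4 transcripts have the highest GC content of the 10 genes (60.4%). TEAD1 (chr11:12674591-12944483) had 619, 69.8 and 606 in sh-NC against 1129, 885 and 439 in shRBM10. The lowest value by far was sh-NC replicate 2, A and B lay above all sh-NC libraries, and C lay below sh-NC replicates 1 and 3. The log2 difference of 0.92 ± 0.65 SE (95% interval −0.53 to 2.36, adjusted p = 0.370) came down to 0.33 without sh-NC replicate 2 and to 0.29 with the GC trend removed, and turned to −0.19 when both were done.

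On a scale that allows genes to be compared, CPM per kilobase of transcript, TEAD4 stood at 22.6, 33.6 and 24.5 in sh-NC and TEAD1 at 3.98, 0.448 and 3.89. The ratio of TEAD4 to TEAD1 within a library was 5.69, 74.8 and 6.30 in sh-NC against 1.48, 2.25 and 5.94 in shRBM10. The ratio in C lay inside the sh-NC range, and the difference did not pass (exact permutation test on log2 ratios, p = 0.2). The ratio of YAP1 to WWTR1, on the same scale, was 1.64, 1.12 and 1.38 in sh-NC against 2.58, 2.14 and 1.82 in shRBM10. Each shRBM10 library was above each sh-NC library for that ratio, with a log2 difference of 0.66 and an exact permutation p = 0.1 (0.15 after Benjamini-Hochberg adjustment over the 3 ratios compared). The third ratio was that of CCN1 to CCN2, at 10.2, 16.0 and 11.2 in sh-NC against 6.94, 8.39 and 8.20 in shRBM10, again without overlap (log2 difference −0.65, exact permutation p = 0.1, adjusted 0.15). These 3 pairs were picked from the many possible pairs of members and were not among the planned tests, and the adjustment does not cover that choice.

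Of the 3 reporter genes, CCN1 measured lower without overlap in normalized counts, and CCN2 and ANKRD1 overlapped between the groups. The promoters of the members are given from RefSeq (GRCh38.p14), read 5′ to 3′ on the gene's strand. The core TEAD motif GGAATG and its reverse complement CATTCC were searched from 250 bases before to 50 bases after the annotated start. Of 35114 such windows, 14.03% held the motif on either strand, 1.373% held it at least 2 times and 0.128% at least 3 times. A window was found for 7 of the 10 members and 6 of these held the motif in any of their windows. That is a count of genes, whereas the shares above are of windows. The windows of the first AMOTL2 and the first AJUBA start held none. TEAD1, TEAD4 and CCN1 had no entry in the table. The 250 bases before the start are printed for CCN2 and ANKRD1, which hold the most copies, and for YAP1 and AJUBA, which had differences of opposite sign. Capitals mark the motif.
CCN2 (chr6:131951373-131951622, minus strand): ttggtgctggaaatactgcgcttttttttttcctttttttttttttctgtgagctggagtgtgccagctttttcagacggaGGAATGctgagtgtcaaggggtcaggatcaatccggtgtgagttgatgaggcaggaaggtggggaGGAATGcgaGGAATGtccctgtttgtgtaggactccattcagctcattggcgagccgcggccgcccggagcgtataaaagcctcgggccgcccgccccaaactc
ANKRD1 (chr10:90921088-90921337, minus strand): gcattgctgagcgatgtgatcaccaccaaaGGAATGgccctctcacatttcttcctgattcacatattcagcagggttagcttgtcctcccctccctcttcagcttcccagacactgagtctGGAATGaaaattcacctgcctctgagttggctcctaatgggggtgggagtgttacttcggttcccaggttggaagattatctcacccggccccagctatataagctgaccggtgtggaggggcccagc
YAP1 (chr11:102110197-102110446, plus strand): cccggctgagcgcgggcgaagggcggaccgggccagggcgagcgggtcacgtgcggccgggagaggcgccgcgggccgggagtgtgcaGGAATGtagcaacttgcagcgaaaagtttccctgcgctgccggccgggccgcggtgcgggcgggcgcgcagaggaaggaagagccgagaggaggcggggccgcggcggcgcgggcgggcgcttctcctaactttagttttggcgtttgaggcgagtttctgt
AJUBA, second start (chr14:22976843-22977092, minus strand): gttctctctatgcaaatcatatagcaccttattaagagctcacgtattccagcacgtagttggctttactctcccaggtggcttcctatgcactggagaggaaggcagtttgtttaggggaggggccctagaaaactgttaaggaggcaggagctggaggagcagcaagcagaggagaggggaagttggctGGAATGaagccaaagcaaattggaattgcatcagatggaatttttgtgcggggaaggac

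CCN2 holds the motif 3 times, beginning at −169, −104 and −95 from the start, and ANKRD1 holds it 2 times, at −220 and −128. YAP1 holds 1 copy at −162 and the second AJUBA start 1 copy at −59. The second AMOTL2 start has 1 copy at −69 on the opposite strand, LATS2 has 1 at 9 bases past the start, and neither WWTR1 window has one. A match describes the letters of the window and not a bound site.

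CCN1 (CYR61, chr1:85580761-85583962), a secreted matrix protein, had 3841, 3084 and 3991 normalized counts in sh-NC against 2056, 1314 and 2614 in shRBM10. All shRBM10 values lay below all sh-NC values, with B the lowest and C the highest. This separation rests on the TMM scaling, since the raw CCN1 counts were 2252 in sh-NC replicate 2 and 2722 in shRBM10 C. Scaled by library size only, the log2 difference was −0.77 (edgeR unadjusted p = 0.0515). CCN1 was 1.82-fold lower (log2 −0.87 ± 0.28 SE, 95% interval −1.5 to −0.24), with an unadjusted p = 0.0120, an adjusted p = 0.156 and an exact permutation p = 0.1. Its log2 difference was −1.06 without sh-NC replicate 2 and −0.84 with the GC trend removed. CCN2 (CTGF, chr6:131948176-131951373), a matrix protein of the same family, had 384, 197 and 364 in sh-NC against 303, 160 and 326 in shRBM10. The 2 low values were sh-NC replicate 2 and shRBM10 B, and the groups overlapped. The log2 difference was −0.26 ± 0.37 SE (95% interval −1.08 to 0.56, adjusted p = 0.650), and without sh-NC replicate 2 it was −0.59 (adjusted p = 0.257). An antisense gene overlaps 8.34% of the CCN2 exon bases. ANKRD1 (chr10:90912096-90921276), a nuclear ankyrin-repeat protein, had 415, 464 and 355 in sh-NC against 761, 507 and 223 in shRBM10. The shRBM10 values lay on both sides of the sh-NC values, with A the highest and C the lowest of all 6. Its log2 difference of 0.27 ± 0.40 SE (95% interval −0.61 to 1.16, adjusted p = 0.665) became −0.17 without library A and −0.33 with the GC trend removed. The unadjusted edgeR p was 0.668 and 0.281 in these fits, and ANKRD1 turned in 3 of 15 alternatives.

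The genes most like CCN2 across the libraries were TFAP2C, BTN2A1 and DUSP4, with a Pearson r of log2 level of 0.987, 0.987 and 0.984 over 6 libraries, out of 11071 genes with a mean count of at least 50. These r values are descriptions over few libraries that share depth and base composition, and no other member was among the 3.

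Among the targets that also act on the pathway, AJUBA separated the groups and AMOTL2 and LATS2 did not. AJUBA (chr14:22971174-22982642), a LIM-domain scaffold that binds and restrains LATS kinases, had 3162, 3639.7 and 3182 normalized counts in sh-NC against 1866, 1905 and 2356 in shRBM10. Every shRBM10 value lay below every sh-NC value. AJUBA was 1.63-fold lower (log2 −0.70 ± 0.22 SE, 95% interval −1.19 to −0.22), with an unadjusted p = 0.0088, an adjusted p = 0.155 and an exact permutation p = 0.1. The log2 difference was −0.72 without sh-NC replicate 2 and −0.56 with the GC trend removed. AMOTL2 (chr3:134355874-134375479), an angiomotin that holds YAP1 at cell junctions, was one of the most abundant members, with 8546, 4423 and 8425 in sh-NC against 5299, 4708 and 7402 in shRBM10. All shRBM10 values lay between sh-NC replicate 2 and the other 2 sh-NC replicates. The log2 difference was −0.30 ± 0.31 SE (95% interval −1.0 to 0.40, adjusted p = 0.546). Without sh-NC replicate 2 AMOTL2 stood at −0.63, with an unadjusted p = 0.0187 and an adjusted p = 0.162. LATS2 (chr13:20973032-21061547), the kinase that phosphorylates YAP1, was among the least abundant members per kilobase, with 259, 68.5 and 272 normalized counts in sh-NC against 204, 264 and 204 in shRBM10. All shRBM10 values lay inside the sh-NC range. Its log2 difference of 0.16 ± 0.46 SE (95% interval −0.86 to 1.18, adjusted p = 0.837) turned to −0.32 without sh-NC replicate 2.

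**Figure D2:**
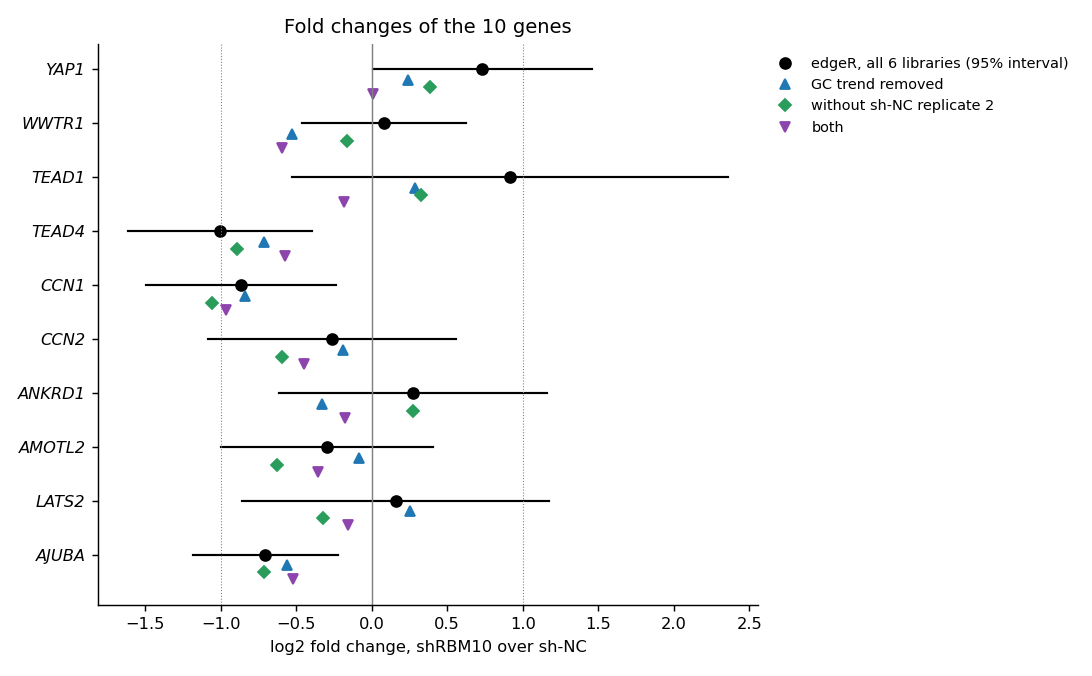
Log2 fold change, shRBM10 over sh-NC, of each gene (horizontal axis, 0 marked by the solid line and 1 and −1 by dotted lines). Circles with bars are the edgeR estimate and its 95% interval over 6 libraries, and the coloured marks are the estimates with the GC trend removed, without sh-NC replicate 2, or both; TEAD4, CCN1 and AJUBA stay below 0 in each, while WWTR1, TEAD1, ANKRD1 and LATS2 lie on both sides of 0.

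The 10 genes covered a wide range of levels in CPM per kilobase. In sh-NC, CCN1 (86.5 ± 11.6 SD, n = 3) and AMOTL2 (85.8 ± 28.2) were the highest and did not differ beyond their spread. AJUBA (42.5 ± 3.45) and TEAD4 (26.9 ± 5.84) followed. YAP1 (15.9 ± 5.41), ANKRD1 (11.3 ± 1.51) and WWTR1 (11.3 ± 2.48) could not be ordered beyond their spread, nor could WWTR1 and CCN2 (7.33 ± 2.38), or TEAD1 (2.77 ± 2.01) and LATS2 (1.97 ± 1.13) at the bottom. In shRBM10 YAP1 stood at 26.4 ± 7.68 (SD, n = 3), beside AJUBA at 26.1 ± 3.48 and above TEAD4 at 13.4 ± 3.06. In bulk RNA, fewer cells that express a gene and less of its RNA per cell cannot be told apart.

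Counted over all 10 genes, 5 measured higher and 5 lower in shRBM10, with a median log2 difference of −0.09 against 0.03 over all genes tested. With a call set at an adjusted p under 0.05 together with a log2 difference beyond 1 in either direction, edgeR called 0 of the 10, against 2 of all 12620 genes (0.0158%), and the members' adjusted p-values ran from 0.152 to 0.846. DESeq2 called 1 of the 10, TEAD4, against 4.72% of the 12129 genes to which it gave an adjusted p. At an unadjusted p under 0.05, 3 of the 10 were lower (TEAD4, CCN1 and AJUBA), where 8.6% of all genes were, and 1 was higher (YAP1), where 15.7% were. In normalized counts the groups were separate and lower in shRBM10 for the same 3 genes, against 16.2% of all genes. They were separate and higher for none of the 10, against 13.8%. Without shRBM10 library B, 1 of the 10 was under that unadjusted limit in either direction, as were 11% of all genes in that fit. Without sh-NC replicate 2 the median of the members was −0.46, with 3 higher and 7 lower, beside a median of 0.02 over all genes. With both the GC trend and sh-NC replicate 2 taken out, an alternative chosen after the data were seen, 9 of the 10 measured lower and AJUBA, TEAD4 and CCN1 reached adjusted p-values of 0.0218, 0.0247 and 0.0456 at log2 differences of −0.52, −0.57 and −0.96, short of the fold limit. In that fit 49.6% of all genes measured lower, and 4.74% were lower at an adjusted p under 0.05.

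The sign of a member's difference went with the GC content of its transcript. The 4 members under 44% GC (WWTR1 40.9%, TEAD1 41.3%, ANKRD1 43.3% and YAP1 43.5%) were all higher in shRBM10, and of the 6 above 50% only LATS2 (51.8%) was. Over all genes the median log2 difference was 0.67 at 40 to 42% GC, 0.59 at 42 to 44%, −0.08 at 50 to 52% and −0.34 at 60 to 62%. YAP1 (0.73) and TEAD1 (0.92) lay inside the middle 50% of genes of like GC content. TEAD4, CCN1 and AJUBA lay below that range, whose lower ends were −0.55, −0.37 and −0.43, and WWTR1 (0.08, lower end 0.26) did too. In all, 6 of the 10 members lay inside the range, 4 below it and none above. The part of GC content in these differences was not tested beyond the fit with its trend removed, in which 4 of the 10 were lower at an unadjusted p under 0.05 (WWTR1, TEAD4, CCN1 and AJUBA) against 9.72% of all genes.

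**Figure D3:**
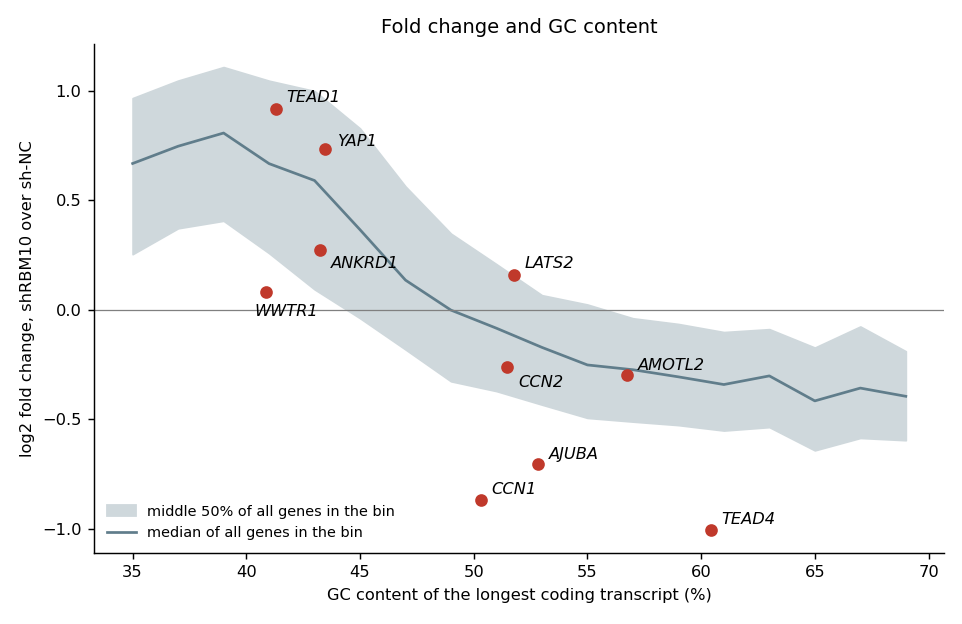
Log2 fold change, shRBM10 over sh-NC (vertical axis), against the GC content of the longest coding transcript in percent (horizontal axis). Points are the 10 genes, the line is the median of all genes tested in bins of 2 percentage points and the band holds the middle 50% of them; TEAD4, CCN1, AJUBA and WWTR1 lie below the band.

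RBM10 regulates splicing, so the transcripts of each member were compared as shares of the gene's counts. TEAD1, CCN1, CCN2 and ANKRD1 each had 1 transcript in the deposited transcript table. The other 6 genes were tested for a difference in usage, and 0 of them passed at an adjusted Simes p under 0.05 in edgeR's diffSpliceDGE, against 0.0958% of the 8348 genes tested. At an unadjusted p under 0.05 LATS2 alone passed (adjusted p = 0.247), against 2.78% of all genes. The LATS2 transcript NM_014572 made up 94.0%, 100% and 100% of the gene's counts in sh-NC against 81.6%, 91.4% and 81.1% in shRBM10. Transcript XM_011535042 was at 0 in all 3 sh-NC libraries, where a count of 0 allows a share of up to 1.05%, 6% and 0.997% in replicates 1, 2 and 3 and of 0.471% over their 637 counts together, and at 18.4%, 8.56% and 12.6% in shRBM10 A, B and C. These shares rest on 36.6, 23.6 and 26.7 estimated counts, and on only 50 LATS2 counts in sh-NC replicate 2, and the limit covers counting error only. Its adjusted p was 0.416 without sh-NC replicate 2, and the gene dropped out of the test when at least 10 counts were asked of every library.

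In the other 5 genes tested no Simes p was under 0.05, adjusted or not. In YAP1 the most used transcript, NM_001130145, held 36.0% ± 5.72 (SD, n = 3) of the counts in sh-NC and 39.8% ± 4.42 in shRBM10, and NM_001195044 held 15.5% ± 7.37 and 14.4% ± 3.56. NM_001282097 held 11.8% ± 4.35 and 10.8% ± 4.38. XM_005271380 held 14.4%, 5.66% and 13.8% in sh-NC against 5.70%, 0.316% and 8.33% in shRBM10, with overlap. The YAP1 Simes p was 0.967. One transcript made up nearly all of WWTR1 (96.6% ± 0.509 in sh-NC and 95.6% ± 1.98 in shRBM10) and of TEAD4 (96.4% ± 2.04 and 93.4% ± 1.63). AJUBA was divided between NM_032876 (63.1% ± 12.4 and 66.3% ± 2.67) and NM_198086 (36.7% ± 12.3 and 33.3% ± 2.74), with sh-NC replicate 2 apart at 48.9% and 50.9%. AMOTL2 was led by XM_017006580 (68.8% ± 8.85 and 63.7% ± 9.40) and XM_006713654 (22.5% ± 2.72 and 24.0% ± 2.50).

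The rest of the pathway was read from 4 further gene lists, none of which held a gene called by edgeR over all 6 libraries. DESeq2 called FRMD6, 1 of 23 tested Hippo kinases and upstream regulators, and AXL, 1 of 16 tested YAP target signature genes. It called none in the other lists, against 4.72% of the 12129 genes to which it gave an adjusted p. Over all genes tested, 51.6% were higher in shRBM10 and the median log2 difference was 0.03. Of the Hippo kinases and upstream regulators, 23 of 25 listed genes were tested, with 17 higher and 6 lower and a median log2 difference of 0.45. Of these, 3 of 23 were higher at an unadjusted p under 0.05, where 15.7% of all genes were, and none was lower. FRMD6, which recruits Hippo components to the membrane, had 1286, 861 and 1218 normalized counts in sh-NC against 3841, 3176 and 1333 in shRBM10 (log2 1.31 ± 0.37 SE, adjusted p = 0.153 in edgeR and 0.0296 in DESeq2). AMOT, an angiomotin like AMOTL2, had 243, 103 and 264 in sh-NC against 548, 447 and 349 in shRBM10 (1.13 ± 0.38, adjusted p = 0.158). Both were separate between the groups, whereas STK4 (MST1), a kinase upstream of LATS, overlapped (1.05 ± 0.39 SE, adjusted p = 0.172). CSNK1E (−0.31), named after its values were seen, was separate and lower. Its raw counts were 1616 in sh-NC replicate 2 and 2129 in shRBM10 C. In normalized counts, 2 of 23 were thus separate and higher and 1 separate and lower, where 13.8% and 16.2% of all genes were. TAOK2, a kinase above STK4, was next by p, at −0.55 (adjusted p = 0.219). With the GC trend removed FRMD6 stood at 0.62, AMOT at 0.88 and STK4 at 0.51, and the median of the list at 0.21, with no gene of it past an unadjusted p of 0.05 and a log2 difference of 1 together. With sh-NC replicate 2 left out as well, the median was −0.08.

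Of the other TEAD and VGLL genes, 5 of 6 were tested and the median was −0.34. VGLL1, a TEAD cofactor that competes with YAP1, had 4037, 5624 and 3611 normalized counts in sh-NC against 2582, 2957 and 3178 in shRBM10. It was separate and lower (log2 −0.61 ± 0.24 SE, unadjusted p = 0.033, adjusted p = 0.183). VGLL3 stood at 0.87, TEAD2 at −0.37 and TEAD3 at −0.34, all with overlap. Of the STRIPAK genes, which code for a phosphatase complex that opposes the Hippo kinases, all 8 were tested and the median was 0.50. STRIP2 (0.65) and SLMAP (1.05) were separate and higher, with adjusted p-values of 0.192 and 0.199, and STRN (1.12) and STRN3 (1.17) overlapped. PPP2R1A (−0.46), named after its values were seen, was separate and lower. Its raw counts were 12346 in sh-NC replicate 2 and 13004 in shRBM10 C. In normalized counts, 2 of 8 were thus separate and higher and 1 separate and lower, where 13.8% and 16.2% of all genes were. With the GC trend removed STRIP2 stood at 0.29, SLMAP at 0.38, STRN at 0.35 and STRN3 at 0.49, and the median at 0.16.

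Of 17 further genes of a published YAP target signature, 16 were tested, with 8 higher and 8 lower and a median of −0.03. AXL, a receptor tyrosine kinase, had 1274, 778 and 1228 normalized counts in sh-NC against 535, 463 and 582 in shRBM10. AXL was 2.08-fold lower without overlap in normalized counts (log2 −1.05 ± 0.26 SE, adjusted p = 0.142). Its raw counts were 568 in sh-NC replicate 2 and 606 in shRBM10 C, so the separation rests on the TMM factors. DESeq2 called AXL (−1.08, adjusted p = 0.0211), and so did edgeR without sh-NC replicate 2 (−1.33, adjusted p = 0.0487). GADD45A, a stress-response gene, was separate and lower as well (−0.66 ± 0.21 SE, adjusted p = 0.156). NUAK2 stood at −0.51 with overlap and IGFBP3 at −0.44 without. Raw counts in sh-NC replicate 2 and shRBM10 C were 1704 and 1785 for GADD45A, and 1621 and 1768 for IGFBP3. ASAP1 (0.93) and CRIM1 (0.85), named after their values were seen, were separate and higher. That made 3 of the 16 separate and lower and 2 separate and higher, where 16.2% and 13.8% of all genes were. Beside these, the endothelial markers CDH5 (log2 −1.38, adjusted p = 0.144 in edgeR and 0.0191 in DESeq2) and VWF (−1.31, adjusted p = 0.155) were also lower, with PECAM1 at 1 to 3 counts, and the leukocyte marker CSF1R was higher (0.57, adjusted p = 0.192), with PTPRC and LYZ at 0 to 7. The summed counts were 73 to 207 in sh-NC and 48 to 72 in shRBM10 for the 3 endothelial markers, 569 to 1070 and 1116 to 1715 for 3 of 4 leukocyte markers and 41 to 138 and 106 to 211 for 3 of 5 fibroblast markers, and their part in the differences above was not tested.

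**Figure D4:**
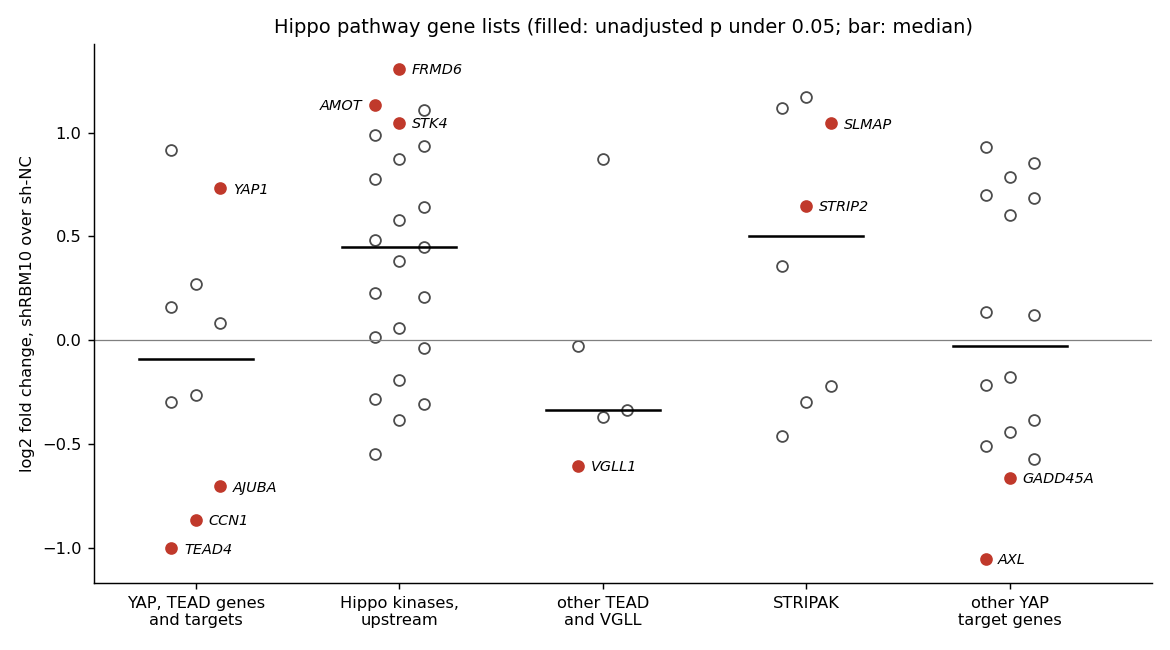
Log2 fold change, shRBM10 over sh-NC (vertical axis), of every tested gene of the 10 genes and of 4 further Hippo pathway lists (horizontal axis). Filled points have an unadjusted edgeR p under 0.05 and are named, open points do not, and bars are list medians, which run from −0.34 for the other TEAD and VGLL genes to 0.50 for STRIPAK.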

How the data were processed

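RNA-seq of 6 PC9 samples (3 sh-NC, 3 shRBM10) was analysed. The authors deposited estimated counts, beside FPKM, TPM, normalized counts and group means, for 16306 genes and 76563 RefSeq transcripts. Only the estimated counts were used, rounded to whole numbers. The 18 per-sample columns of other measures and 8 columns of group means in each table were not used. The submitters' processing notes name hg38. The aligner, counter and annotation are not given in the sources used here. Of the gene counts 87.5% were whole, and of the transcript counts 41.1%, so transcript counts are divisions of shared reads.

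TMM normalization and the quasi-likelihood functions glmQLFit and glmQLFTest of edgeR 4.0.16 were applied to the 12620 genes kept by filterByExpr (with limma 3.58.1 and R 4.3.3), over all 6 libraries with no covariate. P-values were adjusted by Benjamini-Hochberg over all genes tested, and SE is the size of the log2 fold change divided by the square root of F. Transcript usage was tested with diffSpliceDGE. Single values were compared by two-sided exact permutation tests. Levels per kilobase used the longest GENCODE v29 coding transcript (GRCh38), which also gave GC content for 99.5% of genes tested. GC trends were removed per library by lowess (span 0.3). Alternatives were DESeq2 1.42.0, limma-voom, 3 normalizations, 2 filters, GC removal and leaving out each library.

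The members and lists were chosen with earlier results of these data known. Named genes are the 10 members, RBM10, from each of 4 lists the 4 genes with the smallest unadjusted p, transcripts with at least 10% of a gene's counts in either group, and the 3 genes most correlated with CCN2. The cell type markers (CDH5, VWF, CSF1R and the others) were set as lists for checking the samples.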

Additional observations from a re-analysis of the deposited data

How the results depend on the processing

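Over 15 alternatives, the direction of YAP1, TEAD4, CCN1, CCN2, AMOTL2 and AJUBA held, with log2 ranges of 0.0052 to 0.90, −1.23 to −0.57, −1.17 to −0.64, −0.59 to −0.0052, −0.63 to −0.08 and −0.86 to −0.52. Of these, YAP1 was only 0.0052 with the GC trend and sh-NC replicate 2 both taken out, and CCN2 only −0.0052 without library B, next to no difference. The other 4 members turned in 9 cases. With the GC trend removed WWTR1 was −0.53 and ANKRD1 −0.33. Without sh-NC replicate 2 WWTR1 was −0.16 and LATS2 −0.32, and without library A ANKRD1 was −0.17. Leaving out 1 library at a time gave WWTR1 −0.16 to 0.23, ANKRD1 −0.17 to 0.58 and LATS2 −0.32 to 0.44. With the GC trend removed and sh-NC replicate 2 left out, a fit chosen after the data were seen, WWTR1 was −0.60, TEAD1 −0.19, ANKRD1 −0.18 and LATS2 −0.16. The causes were not tested.

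Over all genes, edgeR called 2, both higher. The count was 573 with DESeq2, 0 by library size only, 31 without the filter on low counts, 4 with the GC trend removed, 278 with the GC trend and sh-NC replicate 2 both taken out, and 0 to 23 when a library was left out, the highest being without sh-NC replicate 2. Of the members, 0 were called, 1 with DESeq2 and 0 with any library left out. Those at an unadjusted p under 0.05 numbered 4, and 2 by library size only (TEAD4 and AJUBA). They numbered 1 to 4 when a library was left out, the lowest being without library B. Their median of −0.09 ran from −0.46 (without sh-NC replicate 2) to 0.011 when a library was left out. Scaling by library size only moved the median of all genes from 0.03 to 0.16 and that of the members to −0.02. RBM10, at −1.24, passed with DESeq2 (−1.26), without sh-NC replicate 2 (−1.42, adjusted p = 0.0487) and with that library and the GC trend both taken out (−1.08), and ran from −1.43 to −1.17 when a library was left out. No member was called for transcript usage under any alternative. In the lists, GC removal together with leaving out sh-NC replicate 2 turned the median of the Hippo kinases to −0.08 from 0.45.

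No paired analysis was possible because the columns of shRBM10 libraries B and C carry no replicate number. With 3 libraries a group an exact test cannot go below p = 0.1, and 1 library, sh-NC replicate 2, held 50 to 51 counts of LATS2 and TEAD1. A group left with 2 libraries takes its spread from the pooled fit.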
